A study of Ovis aries with 15 samples.

Results

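The genes described here build fatty acids and glycerides, and were chosen by name: ACLY, ACSS2, ACACA, THRSP, ELOVL6, GPAM, ME1 and PC. Their promoters were read in tables of 3 histone marks, which together list 18460 promoters. All 8 genes have a row among the 13222 promoters of the H3K27ac table, 7 (all but ME1) among the 12922 of the H3K4me3 table, and 1 (ELOVL6) among the 6334 of the H3K27me3 table. Each table holds only promoters with a deposited value of at least about 50 in some library (the lowest such maximum is 50.2, 50.7 and 51.5), so a gene without a row was not analysed for that mark.

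The tissue is perirenal fat, the depot around the kidney, of purebred merino sheep labelled wild type and untreated. Fetuses were sampled at 132 days of gestation, when term is at 150 ± 3 days. Lambs are labelled 80 days old, while the growth protocol gives 89 ± 7 days. Each mark has a library from fetuses 1 and 2 and from lambs 1 and 2, and H3K4me3 has a further one from lamb 3. A tag, VEH, whose meaning the labels leave unstated, is attached to lambs alone and cannot be told apart from stage.

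Fat cells make fatty acids from cytosolic acetyl-CoA. ACLY cuts citrate exported from mitochondria to yield it, ACSS2 makes it from acetate, the main lipogenic carbon source of ruminants, and ACACA carboxylates it to malonyl-CoA in the committed step. THRSP (Spot 14) is a nuclear and cytosolic protein induced with lipogenesis, and ELOVL6 lengthens the finished palmitate. GPAM attaches the fatty acid to glycerol phosphate, the entry into triglyceride synthesis. ME1 supplies NADPH, and PC, a mitochondrial enzyme, makes oxaloacetate from pyruvate and so supports citrate export and glyceride-glycerol synthesis. H3K27ac accompanies active promoters, H3K4me3 sits at the start of active and of poised genes, and H3K27me3 is laid down by Polycomb at silenced genes.

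Depth and tissue were checked first. Reads in promoters, estimated by taking the common spacing of a library's values as 1 read, ranged from 5061861 to 6257855 for H3K27ac and from 324662 to 430345 for H3K27me3. For H3K4me3 they ranged from 9988025 to 17541582 in both fetuses and lamb 1 but were 2476065 in lamb 2 and 2542840 in lamb 3, so the last 2 libraries were the shallow ones. Promoter values below were brought to a common scale between libraries with TMM (trimmed mean of M-values) factors, and changes are lamb minus fetus on the scale log2(value + 1). The adipocyte markers ADIPOQ, PLIN1, FABP4, LPL, CIDEC and PNPLA2 were all listed for H3K27ac and H3K4me3, LIPE and CD36 were not, and the brown fat marker UCP1 was listed for both. Of 4 kidney tubule markers 0 were listed for H3K27ac, 1 for H3K4me3 and 3 for H3K27me3. Being listed did not separate fat from other organs. For H3K27ac 4 of 4 hepatocyte, 3 of 7 adrenal and 2 of 8 skeletal muscle markers were listed too.

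H3K27ac asked which of these promoters gained or lost a mark of activity between fetus and lamb. Of the 8, 5 fell in lambs (ME1, ACACA, GPAM, THRSP and ACSS2), 0 rose, and ACLY, ELOVL6 and PC did not pass the threshold of an adjusted p under 0.05 (limma, adjusted over the whole table). Of all 13222 promoters 29.1% were called, 17.7% lower and 11.4% higher. Both lambs lay below both fetuses at the same 5 genes and above them at 0, as at 33.5% and 33% of all promoters. At an unadjusted p under 0.05 the number of members that rose was also 0. The median change of the members was -0.54, beside 0.02 over all promoters. In whole tissue, fewer cells of a type and less mark per cell cannot be told apart.

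Of the genes that make cytosolic acetyl-CoA, ACSS2 was called in H3K27ac and ACLY was not. Their changes were not tested against each other. The acetate enzyme ACSS2 (ENSOARG00000010787) had 359.8 (fetus 1) and 304 (fetus 2) against 231 (lamb 1) and 225 (lamb 2). Both fetuses stood above both lambs, and the mean fell from 332 ± 39.5 to 228 ± 4.21 (SD, n = 2 each; log2 change -0.53, SE 0.13, limma adjusted p = 0.00658). The citrate enzyme ACLY (ENSOARG00000017829) had 311 and 260.4 in fetuses against 270.01 and 248 in lambs. Its groups overlapped, with lamb 1 above fetus 2 (log2 change -0.14, 95% confidence interval -0.42 to 0.15, adjusted p = 0.465).

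ACACA (ENSOARG00000000829), the enzyme of the committed step, had 334 and 367 in fetuses and 213 and 230.1 in lambs. This was a fall from 350.4 ± 23.3 to 221 ± 12.3 (SD, n = 2 each; log2 change -0.66, SE 0.13, limma adjusted p = 0.00127), with no overlap. THRSP (ENSOARG00000015271) had 226 and 259.9 in fetuses and 179 and 153 in lambs, a fall from 243 ± 23.9 to 166 ± 18.02 (log2 change -0.55, SE 0.15, adjusted p = 0.0139), again without overlap. The elongase ELOVL6 (ENSOARG00000004328) had 126 and 173 in fetuses and 132 and 137 in lambs. Both lambs lay between the 2 fetuses, and the interval of its change, from -0.55 to 0.28, includes a fall as large as that of ACSS2 or THRSP (adjusted p = 0.631).

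GPAM (ENSOARG00000010969), which begins glyceride synthesis, had 380.2 and 420.1 in fetuses and 266 and 258 in lambs, with no overlap. It fell from 400.1 ± 28.2 to 262 ± 5.53 (SD, n = 2 each; log2 change -0.61, SE 0.12, limma adjusted p = 0.00165). ME1 (ENSOARG00000007496), the NADPH source, had 155 and 234 in fetuses and 113 and 115 in lambs. It had the largest fitted fall of the 8 (log2 change -0.74, SE 0.20, adjusted p = 0.0121), although its fetal values were also the widest apart (195 ± 56.0). PC (ENSOARG00000008789) had 260.3 and 213 in fetuses and 222 and 247 in lambs. These values interleave, and the log2 change was -0.01 with an interval from -0.31 to 0.30 (adjusted p = 0.971).

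**Figure D1:**
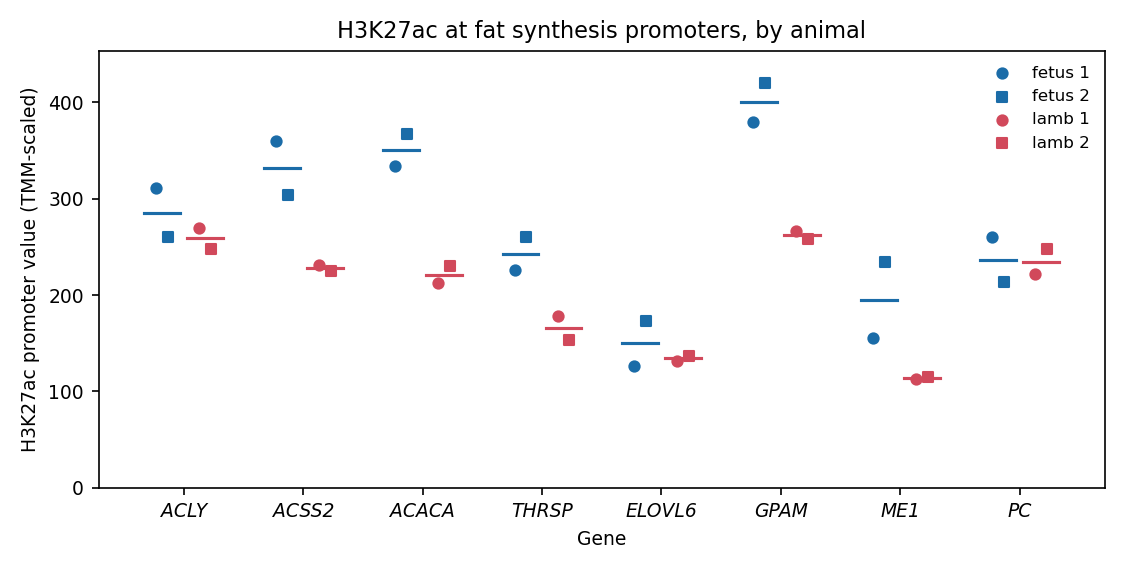
TMM-scaled H3K27ac promoter values (vertical axis, starting at 0) for each of the 8 genes, 1 point per animal, with fetuses in blue and lambs in red and a bar at each group's mean. Both lambs lie below both fetuses at ACSS2, ACACA, THRSP, GPAM and ME1, while the groups overlap at ACLY, ELOVL6 and PC.

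The rank of a promoter within its own library does not depend on any factor applied to that library. ACACA stood at percentile 85.5 and 88.7 of all promoters in fetuses 1 and 2 and at 61.0 and 67.8 in lambs 1 and 2. ME1 went from 37.1 and 65.4 to 10.3 and 11.9, and THRSP from 63.1 and 71.8 to 41.8 and 29.0. ACSS2 went from 88.5 and 80.4 to 69.5 and 65.9, and GPAM from 90.5 and 93.0 to 82.0 and 78.1. By rank these 5 genes were lower in both lambs than in either fetus. So was ELOVL6, at 24.4 and 44.2 in fetuses and 17.6 and 20.8 in lambs, although its scaled values overlapped. The share of all promoters that were lower in both lambs by rank was not computed, so these genes cannot be set against it. PC had 71.7 and 59.0 in fetuses and 65.2 and 74.3 in lambs, and ACLY 81.9 and 71.9 against 83.1 and 74.5, so the stages overlapped in rank at these genes.

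In the H3K27ac table falls were more frequent at strong promoters. ACACA, ACSS2, GPAM and ACLY belong to the highest quartile by mean level, where 45.0% were called lower and the median change was -0.31. THRSP and PC belong to the quartile below it (17.2% lower, median -0.03). ME1 and ELOVL6 belong to the one below that, where 6.08% were called lower and the median change was 0.15. ME1 was thus opposite in sign to the median of its own level, as was ELOVL6 with a change of -0.14 that did not pass. With cyclic loess scaling, which removes a trend with level between libraries, ME1 (-0.92, adjusted p = 0.00674), THRSP (-0.57, 0.0182) and ACACA (-0.45, 0.0200) still passed limma, and ACSS2 (-0.33, 0.0847) and GPAM (-0.30, 0.0866) did not.

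ACACA and GPAM passed in each fit with 1 of the 4 libraries left out, the highest adjusted p being 0.0263 for ACACA (without lamb 1) and 0.0164 for GPAM (without lamb 2). ACSS2, ME1 and THRSP lost their calls without lamb 1 (adjusted p = 0.0554, 0.107 and 0.0634) or lamb 2 (0.0616, 0.0701 and 0.218). Their changes were then -0.55 and -0.51 for ACSS2, -0.72 and -0.76 for ME1 and -0.66 and -0.44 for THRSP, beside -0.53, -0.74 and -0.55 with all animals. The fitted change of ME1 was -1.03 without fetus 1 and -0.43 without fetus 2. Such a fit assumes that the lone animal of a stage varies like the others. A two-sided exact permutation test cannot go below p = 0.333 with 2 against 2 animals, or 0.2 with 2 against 3.

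H3K4me3 asked which of the promoters gained or lost a mark of the transcription start. Of the 7 listed genes, ACLY fell, ELOVL6 rose and 5 did not pass limma, in a table where 10.2% of promoters were called, 1.90% lower and 8.33% higher. The median change of the 7 was -0.34, beside 0.00335 over all promoters. At an unadjusted p under 0.05, PC and THRSP were also higher and GPAM and ACSS2 lower, as were 21.1% (higher) and 13.9% (lower) of all promoters. All 7 genes had TMM-scaled lamb values entirely on one side of the fetal values, with 4 below and 3 above, where 22.8% and 25.7% of all promoters did.

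ACLY had 609 and 439 in fetuses 1 and 2 against 213, 319 and 233 in lambs 1, 2 and 3. The highest lamb was below the lowest fetus, and the mean fell from 524 ± 121 (SD, n = 2) to 255 ± 56.2 (SD, n = 3; log2 change -1.04, SE 0.31, limma adjusted p = 0.0279). Its change ranked 60th from the lowest of 12922. It lies in the second quartile from the bottom by level, where 0.433% of promoters were called lower and the median change was 0.38. In percentiles of its own library ACLY went from 69.7 and 56.0 in fetuses to 32.3, 35.8 and 23.8 in lambs.

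ELOVL6 had 100.2 and 86.5 in fetuses and 174, 340.4 and 243 in lambs, all lambs above both fetuses. The mean rose from 93.4 ± 9.66 (SD, n = 2) to 252 ± 83.8 (SD, n = 3; log2 change 1.37, SE 0.43, limma adjusted p = 0.0370). The promoter is weak, in the lowest quartile by level, whose median change was 1.14. Its percentile went from 16.6 and 19.6 in fetuses to 25.4, 40.6 and 25.8 in lambs. The deposited values behind it were nearly level, at 146 and 137 in fetuses and 163, 152 and 139 in lambs, from 104 to 289 reads. The rise is therefore relative to the other promoters of the same libraries, whose median deposited value went from 570 and 554 in fetuses to 350.3, 172 and 215 in lambs.

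Of the remaining 5 genes, GPAM lay nearest the threshold. It had 982 and 1513 in fetuses and 861, 546 and 670.1 in lambs (log2 change -0.84, SE 0.29, limma adjusted p = 0.0501), with no overlap. ACSS2 had 674 and 787 in fetuses and 657, 398 and 441 in lambs (-0.58, adjusted p = 0.123), lamb 1 being close to fetus 1. The percentiles of ACSS2 overlapped (74.8 and 73.2 in fetuses, 76.0, 52.2 and 60.0 in lambs). ACACA had 656 and 717 against 586, 524 and 516 (-0.34, interval -0.87 to 0.19, adjusted p = 0.324), a smaller separation than in H3K27ac, and its percentiles overlapped (73.5 and 70.3 in fetuses, 70.3, 72.9 and 70.4 in lambs).

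THRSP and PC had positive changes in H3K4me3 without passing, which turned negative with the deposited scaling (-0.56 and -0.31) and, for PC, with cyclic loess (-0.08). THRSP had 224 and 180.4 in fetuses and 352, 401 and 262 in lambs (log2 change 0.72, SE 0.33, limma adjusted p = 0.117). Its percentiles overlapped, at 35.3 and 36.1 in fetuses and 47.9, 52.7 and 29.7 in lambs, with lamb 3 below both fetuses. PC had 102 and 82.1 in fetuses and 129.7, 225 and 201 in lambs (0.97, SE 0.48, adjusted p = 0.141). PC is a weak promoter like ELOVL6, with 86 to 216 reads a library, and its percentile hardly differed between stages, at 17.1 and 18.3 in fetuses and 16.5, 15.9 and 17.1 in lambs.

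**Figure D2:**
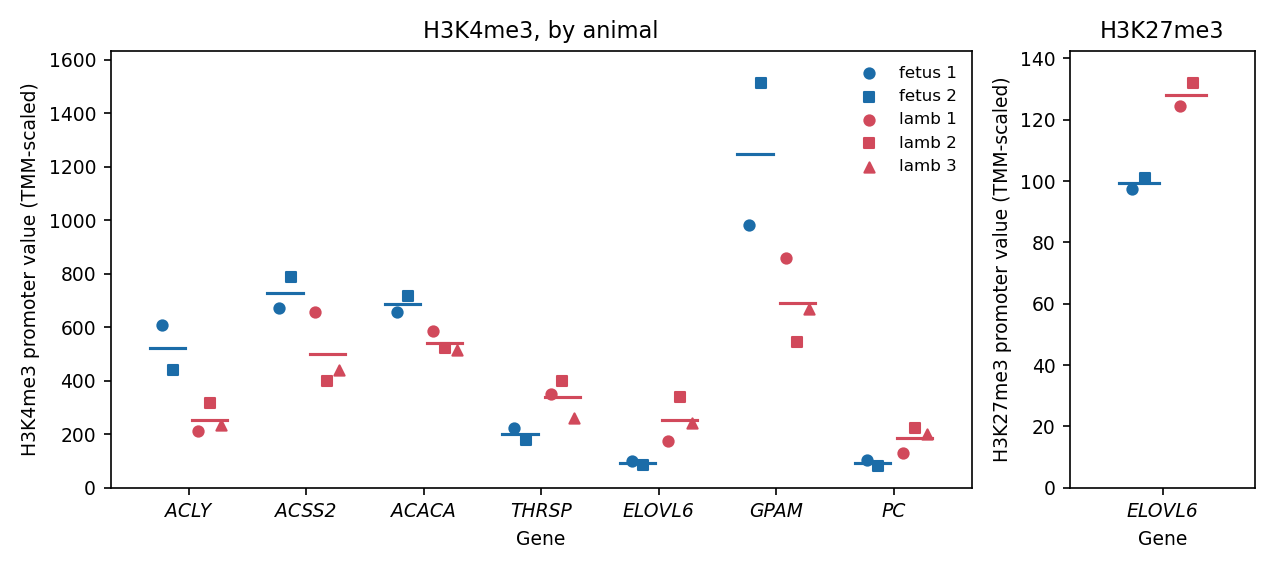
TMM-scaled promoter values by animal (vertical axes from 0) for H3K4me3 at the 7 listed genes and, on the right with its own axis, for H3K27me3 at ELOVL6; bars are group means. The 3 lambs lie below both fetuses at ACLY, ACSS2, ACACA and GPAM and above them at THRSP, ELOVL6 and PC on this scale, while with the deposited scaling the changes of THRSP (-0.56) and PC (-0.31) are negative.

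Both the H3K4me3 calls and the size of the changes moved with the libraries included. With 1 animal left out, ACLY ranged from -1.28 to -0.80, ELOVL6 from 1.13 to 1.65 and GPAM from -1.15 to -0.53. Without lamb 2 the change of ACLY was -1.21 (adjusted p = 0.103) and that of ELOVL6 1.13 (0.337). Without lamb 3 they were -0.99 (0.406) and 1.38 (0.446), beside -1.04 and 1.37 with all animals. The number of promoters called in the whole table then fell from 1322 to 50 and 12. ACLY also lost its call without lamb 1 (0.0704), and ELOVL6 without fetus 2 (0.0750). Without fetus 1, GPAM (adjusted p = 0.000269), ACSS2 (0.0232) and THRSP (0.0300) passed as well, with 5680 promoters called. ACLY kept a negative and ELOVL6 a positive change in each of these fits.

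Scaling set the level that each change is read against. With the deposited values as they stand the median change of all H3K4me3 promoters was -1.28, and relative to that median ELOVL6 was at 1.38 and ACLY at -1.04, as under TMM. In absolute terms ELOVL6 then stood at 0.10 (adjusted p = 0.844), THRSP at -0.56 and PC at -0.31, while ACLY (-2.32), GPAM (-2.13), ACSS2 (-1.86) and ACACA (-1.63) passed as lower. Column totals gave ACLY -0.91 (0.0567) and ELOVL6 1.505 (0.0379). Under cyclic loess 0 of 12922 promoters passed limma, and ACLY stood at -1.16, ELOVL6 at 0.48 and PC at -0.08. For H3K27ac the deposited values moved the median to -0.30 and column totals to 0.11, and the same 5 genes passed under both. Calls over that whole table were 1508 higher and 2341 lower with TMM, 2314 and 1789 with column totals and 167 and 4012 with deposited values. For H3K4me3 the split was 1077 higher and 245 lower with TMM and 55 and 5623 with deposited values.

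**Figure D3:**
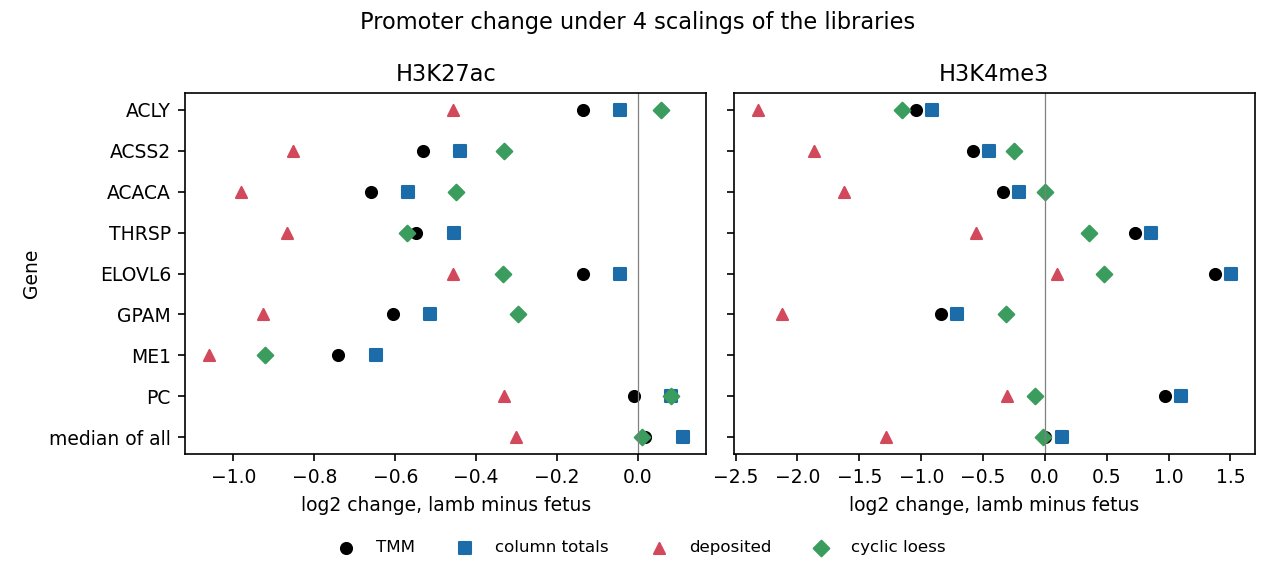
Log2 change (lamb minus fetus, horizontal axis) of each gene under TMM, column totals, the deposited scaling and cyclic loess, with the median of all promoters in the bottom row. For H3K4me3 the deposited scaling moves the median of all promoters to -1.28 and carries every gene with it, while ACLY stays the lowest of the 7 under each scaling.

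For H3K27me3 only ELOVL6 had a row. Its values were 97.5 and 101 in fetuses and 124 and 132 in lambs, from an estimated 29 to 38 reads a library, at which counting error alone is up to 18.6% of a value. Both lambs were above both fetuses, as at 30.5% of all 6334 promoters, and the change of 0.37 (SE 0.36, interval -0.38 to 1.11, limma adjusted p = 0.508) did not pass, also not at an unadjusted p under 0.05. Of all promoters 13.2% were called for this mark, 4.42% higher and 8.83% lower. ELOVL6 stood at percentiles from 23.4 to 29.2 of its libraries. With column totals 435 promoters were higher and 368 lower, against 280 and 559 with TMM, and ELOVL6 was at 0.48 (adjusted p = 0.367).

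Changes in H3K27ac and H3K4me3 were set against each other within animals 1 and 2 of each stage. THRSP had log2 ratios of H3K27ac to H3K4me3 of 0.01 and 0.52 in fetuses and -0.97 and -1.38 in lambs, a difference of -1.45 (SE 0.42). ELOVL6 had 0.33 and 0.99 in fetuses and -0.39 and -1.31 in lambs, a difference of -1.51 (SE 0.46). At both genes the ratio was lower in each lamb than in either fetus. The same held at PC (1.34 and 1.37 in fetuses, 0.77 and 0.14 in lambs). It also held at ACACA (-0.97 and -0.97 in fetuses, -1.46 and -1.18 in lambs), while ACSS2 and GPAM overlapped. The share of all shared promoters that separate in this way was not computed. The zero of the ratio is set by how the marks were scaled. ACLY went the other way, with -0.97 and -0.75 in fetuses and 0.34 and -0.36 in lambs (0.85, SE 0.42).

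Of the 7 differences between these marks 0 passed limma over the 10109 shared promoters (adjusted p = 0.163 for THRSP, 0.209 for ELOVL6 and 0.542 for ACLY). These 3 of 7 were under 0.05 without adjustment, as were 8.81% of the shared promoters, and with adjustment 0.0989% of all shared promoters passed (0.00989% positive, 0.089% negative). ELOVL6 passed when lamb 1 was left out (adjusted p = 0.0263), and ranged from 0.130 to 1.00 in the other fits. The intervals for ACACA (-1.08 to 0.38), ACSS2 (-0.75 to 0.71), GPAM (-0.50 to 0.94) and PC (-2.16 to 0.36) leave room for a difference in either direction. At ELOVL6 the changes of H3K27ac and H3K4me3 relative to H3K27me3 were -0.50 (adjusted p = 0.321) and 1.01 (0.345). The medians over the promoters shared by each pair were 0.47 and 0.86. Of these promoters 27.2% (24.4% positive, 2.83% negative) and 1.65% (1.59% and 0.0568%) passed.

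**Figure D4:**
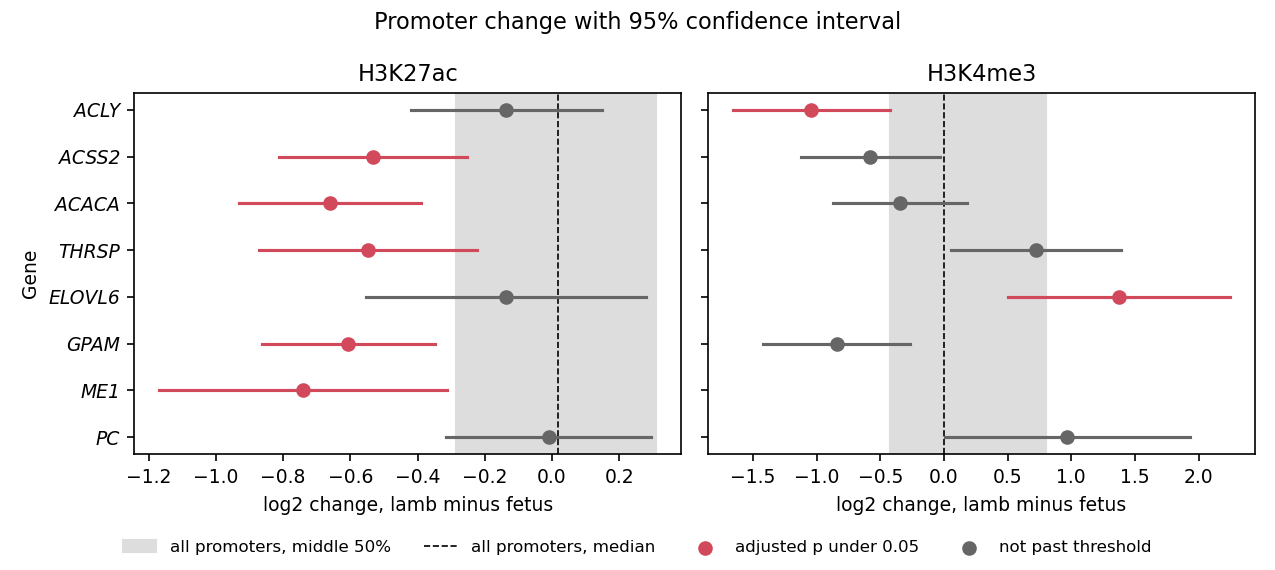
Log2 change (lamb minus fetus, horizontal axis) with its 95% confidence interval for each gene in H3K27ac and H3K4me3; red marks an adjusted p under 0.05, the grey band holds the middle 50% of all promoters and the dashed line is their median. In H3K27ac 5 intervals lie wholly below 0, and in H3K4me3 the calls are ACLY, below 0, and ELOVL6, above 0.

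Ratios between the genes within a library do not depend on a factor applied to the whole library, though cyclic loess alters them. PC was taken as the reference because its H3K27ac was level, so these ratios are a description. The H3K27ac value of GPAM was 1.46 and 1.97 times that of PC in fetuses and 1.20 and 1.04 times in lambs. ACACA was 1.28 and 1.72 times PC in fetuses and 0.960 and 0.930 in lambs, which is above PC in both fetuses and below it in both lambs. ME1 was 0.596 and 1.10 times PC in fetuses and 0.508 and 0.465 in lambs. In H3K4me3 PC itself had a change of 0.97, which enters each ratio to it. There ACLY was 5.95 and 5.35 times PC in fetuses and 1.64, 1.42 and 1.16 times in lambs, and GPAM 9.59 and 18.4 times against 6.63, 2.43 and 3.34 times. On the log2 scale these ratios changed by -2.02 for ACLY and -1.82 for GPAM, beside -1.04 and -0.84 for the genes' own values. ELOVL6 was close to PC in fetuses (0.979 and 1.05) and above it in lambs (1.34, 1.52 and 1.21).

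The 2 fetuses differed from each other gene by gene in H3K27ac. Fetus 1 was above fetus 2 at PC (0.29 on the log2 scale), ACLY (0.25) and ACSS2 (0.24), and below it at ME1 (-0.59), ELOVL6 (-0.45), THRSP (-0.20), GPAM (-0.14) and ACACA (-0.14). The lambs were closer together, with an SD of at most 18.2 at each of the 8 genes against up to 56.0 in fetuses.

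Beyond the 8 genes, lists of the rest of the pathway held 85 genes, of which 59 had an H3K27ac promoter, 52 an H3K4me3 promoter and 12 an H3K27me3 promoter. In H3K27ac 11 of the 59 fell and 2 rose, with a median change of -0.15, beside 17.7% and 11.4% of all promoters. In H3K4me3 1 of 52 fell and 1 rose (median -0.23), and in H3K27me3 1 of 12 fell and 0 rose (median -0.06; 1.90% and 8.33%, and 8.83% and 4.42%, of all promoters).

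In fatty acid synthesis proper, 2 of 5 H3K27ac promoters fell, beside 17.7% of all promoters. Both are of the mitochondrial pathway: OXSM, its condensing enzyme (498 ± 14.3 to 253 ± 29.5, log2 change -0.98, limma adjusted p = 4.90e-05), and MCAT, its malonyl transferase (-0.69, 0.0171). FASN, the cytosolic synthase that takes up the product of ACACA, had 173 ± 81.1 in fetuses and 185 ± 40.8 in lambs in H3K27ac (0.16, adjusted p = 0.649) and -0.29 in H3K4me3 (0.437), with overlap in both. ACACB, the mitochondrial carboxylase, was listed for H3K27me3 alone (108 ± 19.2 and 110.0 ± 62.2, adjusted p = 0.914). Of the genes of elongation and desaturation, 1 of 11 fell in H3K27ac, again beside 17.7% of all promoters. This was PTPLB, a dehydratase of the elongation cycle (-0.58, adjusted p = 0.00170). PTPLAD2, of the same enzyme family, rose in H3K4me3 (1.76, 0.0437), 1 of 10, where 8.33% of all promoters rose. The stearoyl desaturase gene SCD had 337 ± 45.3 and 266 ± 11.9 in H3K27ac (-0.33, 0.0667) and -0.60 in H3K4me3 (0.143).

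Among glyceride synthesis genes, 3 of 13 fell and 1 rose in H3K27ac, beside 17.7% and 11.4% of all promoters. In H3K4me3 0 of 11 passed, beside 10.2% of all promoters. The acyltransferase genes AGPAT4 (343 ± 2.18 to 252 ± 7.43, log2 change -0.45, limma adjusted p = 0.0123) and AGPAT6 (-0.47, 0.0414) and the lipid phosphatase gene PPAP2B (-0.53, 0.00703) fell. LPIN3, a phosphatidate phosphatase of the lipin family, rose from 107 ± 22.7 to 173 ± 29.3 (0.70, 0.0194). DGAT2, which makes the triglyceride, had 300.4 ± 35.7 and 238 ± 42.8 (-0.34, 0.0922).

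Among the suppliers of citrate and NADPH 4 of 13 were lower and 1 higher in H3K27ac, where 29.1% of all promoters were called. IDH1, the cytosolic isocitrate dehydrogenase that like ME1 makes NADPH, fell from 137 ± 7.15 to 61.8 ± 8.75 (log2 change -1.14, limma adjusted p = 0.00224). IDH2 (-0.86, 0.000146), the oxoglutarate carrier SLC25A11 (-0.80, 0.000266) and the malate dehydrogenase MDH1 (-0.43, 0.0212) fell too. MDH1 was also the 1 gene of 14 to fall in H3K4me3 (960.0 ± 549 to 355 ± 51.8, -1.32, 0.00479), where 1.90% of all promoters fell. Its fetal values were far apart. ME3, a mitochondrial malic enzyme, showed the opposite of ME1. Its H3K27ac rose from 114 ± 35.4 to 206 ± 39.9 (0.87, 0.00643) while its H3K27me3 fell from 488 ± 4.18 to 279 ± 19.3 (-0.81, 0.0167).

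Regulators of the pathway had 1 call in 17 H3K27ac promoters and 0 in 13 H3K4me3 promoters, beside 29.1% and 10.2% of all promoters. AKT2, a kinase of insulin signalling, fell in H3K27ac (289 ± 71.2 to 167 ± 20.1, log2 change -0.76, limma adjusted p = 0.00292). SREBF1, the sterol-regulated activator of lipogenic genes, had 333 ± 79.3 and 268 ± 39.8 in H3K27ac (-0.30, 0.162) and 0.37 in H3K4me3 (0.367). MLXIPL, the carbohydrate-responsive activator, had 114 ± 15.6 and 124 ± 11.0 (0.12, 0.695) and 0.04 (0.933).

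**Figure D5:**
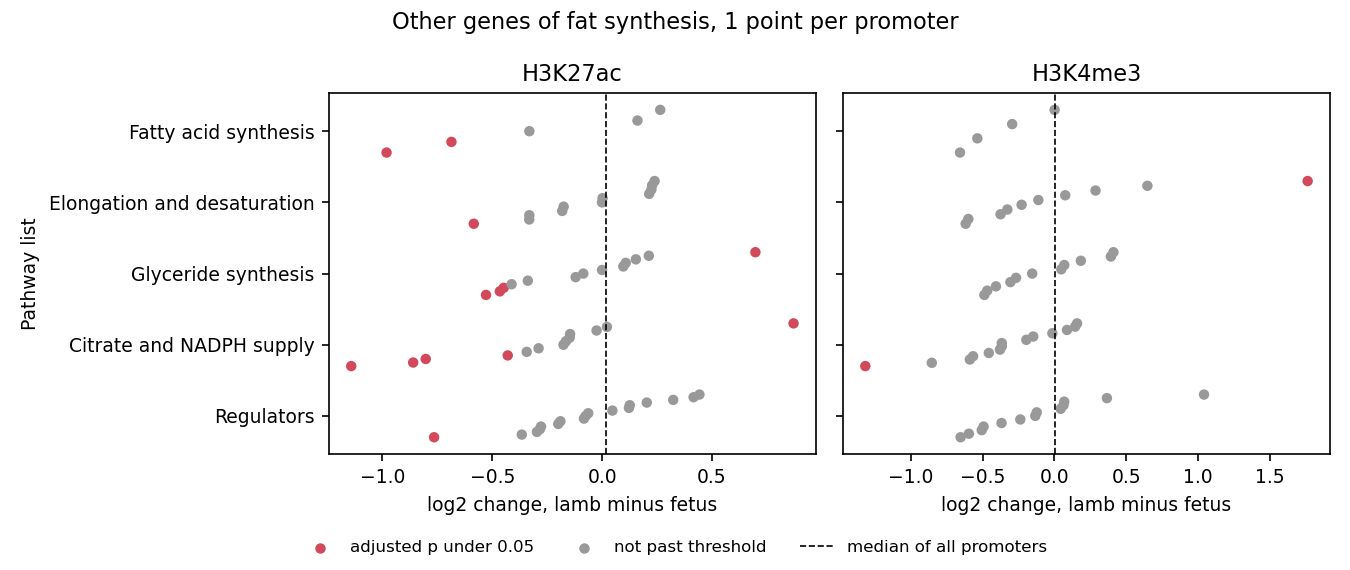
Log2 change (lamb minus fetus, horizontal axis) of each other pathway promoter, 1 point each, by list and mark; red points passed the threshold and the dashed line is the median of all promoters. In H3K27ac 11 of 59 are red below 0 and 2 above, and in H3K4me3 1 on each side of 52.

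Markers of several cell types were read the same way, beside the 29.1% of all promoters called in H3K27ac and 10.2% in H3K4me3. Of the adipocyte markers 4 of 6 fell in H3K27ac (summed value 2260 to 2646 in fetuses, 1542 to 1560 in lambs) and 1 of 6 in H3K4me3, and of the brown adipocyte markers 5 of 6 and 2 of 6. Lymphocyte markers rose at 4 of 7 in H3K27ac (938 to 947 in fetuses, 1275 to 1430.3 in lambs) and at 3 of 8 in H3K4me3 (584 to 935 and 1240 to 2168), and macrophage markers at 0 of 5 and 2 of 6, with 1 of 5 falling in H3K27ac. Fibroblast and preadipocyte markers had 2 rising and 4 falling of 8 in H3K27ac, endothelial markers 3 falling of 7 (0 of 7 called in H3K4me3), and smooth muscle markers 2 rising and 1 falling of 4. No measured marker was at 0 in any H3K27ac or H3K4me3 library, the lowest single value being 23.2 for a lymphocyte marker. The part of these cell types in the changes at the 8 genes was not tested.

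Over the 9 libraries of H3K27ac and H3K4me3, the promoters whose pattern was most like that of ACACA were PSMG1 (Pearson r = 0.999), MOB1A (0.998) and SLC25A3 (0.996), and those most like GPAM were POLR2B (0.999), TNRC6A (0.999) and BTRC (0.996). Each promoter's values were centred and scaled within a mark before the comparison. The coefficient r was above 0.9 with 17.5% of 10109 promoters for ACACA and 20.0% for GPAM. The 9 libraries share the 2 stages and, for animals 1 and 2, the animals.

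In the authors' deposited table, whose test is headed EDGE, the calls at these genes were the same as those of limma at all 16 gene and mark pairs. Both tests rest on the same libraries, so the match is not independent support. The authors' test called 30.8% of all H3K27ac, 12.4% of all H3K4me3 and 15.7% of all H3K27me3 promoters at the same threshold. The authors' deposited table gives signed fold changes in H3K27ac of -1.58 for ACACA, -1.70 for ME1, -1.52 for GPAM, -1.46 for THRSP and -1.46 for ACSS2, with corrected p-values from 5.6e-05 to 0.00685. For H3K4me3 the authors' deposited table gives -2.07 for ACLY (corrected p = 0.0158), 2.69 for ELOVL6 (0.0281) and -1.80 for GPAM (0.0519).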

How the data were processed

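Native chromatin, cut to fragments of about 150 bp, was immunoprecipitated with antibodies to each mark and sequenced as 50 bp single-end reads, per the labels' protocols. Reads were mapped to Oar_v3.1 with CLC Genomics Workbench 7.0, per the labels; bedtools 2.19.0, MACS and edgeR appear, without a role, in the submitters' processing notes. Promoter values as deposited are a signal scaled per library, in whole multiples of a step taken here as 1 read (within 0.1 reads at 99.98% or more of values). The window width and the scaling factor are not stated. The 2 input libraries were not analysed here. The authors deposited a signed fold change (a score), a p-value and a corrected p-value per promoter. The H3K27me3 file has its p-value and fold change columns under each other's names. In the H3K27ac file the p-value column is headed H3K27me3, and it was read here as that of H3K27ac. The authors' deposited peak tables hold raw read counts, used here only for depth (7233767 to 58333449 reads a library), since no annotation of that build was used.

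Values were divided by column total times TMM factor (edgeR 4.0.16), transformed as log2(value + 1) and fitted with limma 3.58.1 (trend, stage as the only term, Benjamini-Hochberg within a table, threshold 0.05), because the tables are scaled where the design had first foreseen counts; the procedure was tested on simulated data. Marks were compared by fitting within-animal differences. A blank line was left out, and no promoter sequence was used here. Named are all 8 genes, 6 fixed pathway genes, other pathway genes past the threshold and the 3 promoters most like ACACA and GPAM. The members and lists were chosen with earlier results of these data known. Alternatives were 3 other scalings, 2 pseudocounts, a filter, a replicate block and leaving out libraries.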

Additional observations from a re-analysis of the deposited data

How the results depend on the processing

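For H3K27ac 3849 promoters were called, with 5 of the 8 genes lower. Cyclic loess gave 2486 calls and 3 genes, and leaving out 1 animal gave 1177 to 5846 calls and 2 to 5 genes. PC turned positive with column totals (0.0826) and cyclic loess (0.0825) and ranged from -0.14 to 0.14 with 1 animal left out, ACLY turned positive with cyclic loess (0.0564), and ELOVL6 ranged from -0.36 to 0.10. For H3K4me3, with 1322 calls and 1 gene on each side, deposited scaling gave 5678 calls, 0 genes higher and 4 lower, and reversed THRSP (-0.56) and PC (-0.31). Column totals left 0 genes lower. Cyclic loess gave 0 calls and 0 genes on either side, with ACACA at 0.0037 and PC at -0.0830. Leaving out 1 animal gave 12 to 5680 calls, 0 to 2 genes higher and 0 to 3 lower. Without lambs 2 and 3 together, which leaves 1 lamb, there were 0 calls and 0 genes. H3K27me3 calls went from 839 to 540 (deposited scaling), 394 (cyclic loess) and 0 to 1405 (1 animal left out).

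Calls for H3K27ac minus H3K4me3 went from 10 to 0 with cyclic loess, to 5 with pseudocount 10 and to 0 to 384 with 1 animal left out, when 0 to 1 of the genes passed. There PC was 0.18 with cyclic loess, and with 1 animal left out ACSS2 ranged from -0.37 to 0.29 and GPAM from -0.0832 to 0.50. H3K27ac minus H3K27me3 calls (625) ranged from 283 to 549 with 1 animal left out. H3K4me3 minus H3K27me3 calls (58) were 21 with column totals, 26 with cyclic loess, 33 with pseudocount 10, 38 with a mean of at least 100 in both marks and 5 to 95 with 1 animal left out. The cause of these shifts was not tested.

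Replicate numbers name different animals in the 2 stages and do not pair them. Deviations of same-numbered animals correlated at 0.28 for H3K27ac, -0.41 and -0.35 for H3K4me3 and 0.10 for H3K27me3. With a replicate block the calls were 5255 for H3K27ac, with the same 5 genes lower, 5 for H3K4me3, with 0 genes higher and 0 lower, 1252 for H3K27me3, and 0, 345 and 15 for the 3 differences between marks. For H3K4me3 the block also sets aside lamb 3, which has no fetus of its number, and without lamb 3 alone there were 12 calls. Of the fits of single genes under alternatives, 74 of H3K27ac kept direction and call, 8 lost the call and 6 reversed; for H3K4me3 these were 67, 14 and 4, with 6 that gained a call. Planned count models (edgeR and DESeq2) on reads were not run, since reads are only estimated here from the spacing of values. H3K27me3 at ELOVL6 rests on an estimated 29 to 38 reads a library.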
